A study of Mus musculus with 4 samples.

Results

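This account covers 9 genes: regulators of trophoblast, the outer lineage of the early embryo that builds the placenta, and keratins of simple epithelium, the single-layered sheets that line surfaces and cavities. The genes were Elf5, Gata2, Gata3, Tfap2c and Tead4, which encode 5 transcription factors, and Krt7, Krt8, Krt18 and Krt19, which encode 4 keratins. They were chosen by name, as the probe sets whose annotated symbol is one of these, with earlier results of these data known. All 9 of 9 were present among 22180 genes with a single-symbol probe set. All 9 reached log2 6 on some array, the limit for testing, as did 18310 genes in all, although Elf5 only just did (6.32 on its highest array). The cells were P19, a mouse embryonal carcinoma line that differentiates in retinoic acid. Total RNA was measured on Affymetrix arrays, with 1 array for each of 4 groups. Wild-type cells and a line called the Ctcfl line here were each measured undifferentiated, with ethanol as vehicle, and after 4 days in 10 µM retinoic acid. The Ctcfl line is a P19 clone with the stably integrated vectors pBI-EGFP-FLAG-mCtcfl and pTA-N, in which doxycycline represses Ctcfl (Tet-Off), and doxycycline at 2 µg/ml had been withdrawn from it for 2 days in both states. For wild-type cells the labels are in conflict, since the sample characteristics list 2 µg/ml doxycycline and the growth description lists ordinary medium with 10% FCS. The Ctcfl line therefore differed from wild type in its vectors, its clonal origin and perhaps doxycycline as well as in Ctcfl, a testis paralog of the insulator protein Ctcf.

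In the blastocyst, Tead4 works with the coactivator Yap1 in the outer cells to switch on the trophoblast programme, in which Cdx2 and Gata3 act early. Tfap2c, Elf5 and Eomes then sustain trophoblast stem cells, and Gata2 and Gata3 regulate genes of the placenta's giant cells. Keratins are intermediate filament proteins that assemble only as pairs of a type II chain (Krt7, Krt8) with a type I chain (Krt18, Krt19). Krt8 and Krt18 are the first such pair of the embryo, found in trophectoderm and in extraembryonic endoderm, and are textbook markers of differentiation in embryonal carcinoma cells exposed to retinoic acid. None of the 9 genes is confined to trophoblast: Gata2 and Gata3 also act in blood, brainstem and ectoderm, and Tfap2c in germ cells and ectoderm.

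The start regions of the 3 genes that rose with retinoic acid, Krt8, Krt18 and Gata3, are shown because these genes moved together, and that of Krt7 because it encodes the other type II chain among the 9. Each line is the 250 bases before a transcription start, 5′ to 3′ on the gene's strand, from RefSeq on GRCm38.p6, whose promoter table held 6 of the 9 genes. Capitals mark matches, on either strand, to the AP-2 motif GCCNNNGGC, the GATA motif AGATAA or the nuclear receptor motif AGGTCA. They also mark the GC box GGGCGG and the ETS motif CCGGAA. The 6 bases AGGTCA are only part of a full nuclear receptor site. The TATA box TATAAA, the AP-1 motif TGANTCA and the TEAD motif GGAATG were also searched and had no match in these 4 windows. Adjoining capitals in Krt7 are an AP-2 match and a GC box that overlap.
Krt8 (chr15:102004343-102004592, minus strand): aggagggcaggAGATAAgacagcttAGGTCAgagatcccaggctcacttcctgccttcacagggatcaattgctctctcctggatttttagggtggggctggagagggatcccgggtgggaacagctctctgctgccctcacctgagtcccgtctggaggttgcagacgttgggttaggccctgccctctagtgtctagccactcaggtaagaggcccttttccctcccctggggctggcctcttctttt
Krt18 (chr15:102027966-102028215, plus strand): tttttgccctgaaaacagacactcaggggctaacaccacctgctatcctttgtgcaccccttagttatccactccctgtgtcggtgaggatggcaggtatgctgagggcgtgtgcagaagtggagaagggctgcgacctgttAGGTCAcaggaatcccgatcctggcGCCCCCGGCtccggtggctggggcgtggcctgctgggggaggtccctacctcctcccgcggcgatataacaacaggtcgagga
Gata3 (chr2:9878601-9878850, minus strand): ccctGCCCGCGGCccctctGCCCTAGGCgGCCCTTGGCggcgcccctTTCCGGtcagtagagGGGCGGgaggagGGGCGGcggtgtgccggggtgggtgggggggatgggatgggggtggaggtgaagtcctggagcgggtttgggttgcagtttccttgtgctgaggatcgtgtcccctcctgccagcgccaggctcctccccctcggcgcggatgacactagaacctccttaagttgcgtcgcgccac
Krt7 (chr15:101412153-101412402, plus strand): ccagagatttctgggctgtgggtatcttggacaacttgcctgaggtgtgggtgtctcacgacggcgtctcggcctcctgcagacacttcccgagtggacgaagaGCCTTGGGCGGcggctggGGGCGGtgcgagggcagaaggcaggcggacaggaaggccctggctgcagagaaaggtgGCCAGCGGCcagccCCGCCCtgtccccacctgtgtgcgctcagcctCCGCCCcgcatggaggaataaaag
The Krt8 and Krt18 windows each held 1 AGGTCA, which was present in 14.0% of the 32851 windows of this length in the table. The AP-2 motif, present in 13.7% of all windows, matched 3 times in the Gata3 window, 2 times in that of Krt7, once in that of Krt18 and not in that of Krt8. The GATA motif (9.99% of all windows) matched once in the Krt8 window. The GC box (32.7%) matched 2 times in the Gata3 window and 4 times in the Krt7 window, and the ETS motif (12.0%) once in the Gata3 window. The GC content was 58.0% for Krt8, 60.4% for Krt18, 70.0% for Gata3 and 66.0% for Krt7, where the median of all windows was 52.4%. These matches describe letters and are not measured sites. In the RefSeq gene table Krt8 and Krt18 are neighbours on chromosome 15 with 0 protein-coding genes between them.

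Ctcfl had log2 signals of 7.86 and 7.13 in wild-type cells without and with retinoic acid and of 10.41 and 9.56 in the Ctcfl line (adjusted p = 0.00645 in limma for the line). Marker genes of embryonal carcinoma cells were present on the undifferentiated arrays, among them Utf1 at 11.74 and 11.71. With retinoic acid 6 of 9 on the list fell in limma (2.44% of all genes). At an unadjusted p of 0.05 in limma 8 were lower (11.0% of all genes). Correlations between the 4 arrays lay between 0.961 and 0.985 over all probe sets. With 1 array per group, a difference between 2 arrays has no replicate check and is given without a test. Effects averaged over both lines or both states were tested with limma in an additive fit of treatment and line. That design has 1 residual degree of freedom, so whatever differs between the responses of the lines counts as error. Where a gene had several probe sets, their retinoic acid effects had an SD of 0.274 and their line effects an SD of 0.185, over 874 genes. These probe sets were read on the same 4 arrays, so the SD leaves out error between cultures and between arrays. As a guide to background, the 95th percentile of 1105 olfactory receptor genes lay between log2 6.82 and 6.95 on the arrays. Elf5 was below it on 4 of 4 arrays and the other 8 genes were above it on 4 of 4.

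Krt8, the type II keratin of simple epithelium, was higher with retinoic acid in both lines. Its log2 signal was 9.63 in undifferentiated and 11.15 in treated wild-type cells. The Ctcfl line had 9.29 and 10.89. Both arrays with retinoic acid lay above both without it, with a gap of log2 1.26, and within each state the Ctcfl line was slightly the lower. Averaged over the lines Krt8 rose 2.95-fold in limma, higher in 2 of 2 lines (log2 1.56 ± 0.15, SE, adjusted p = 0.00338). By line the folds were 2.87 (wild type) and 3.02 (Ctcfl line), and 0.885% of the 18310 genes had a higher effect.

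Krt18, the type I partner of Krt8, followed the same order of arrays. Its log2 signals were 9.41 and 10.39 in wild type without and with retinoic acid, and in the Ctcfl line 9.01 and 10.21. The states did not overlap, and again the Ctcfl line was the lower in each. Krt18 rose 2.13-fold in limma, higher in 2 of 2 lines (log2 1.09 ± 0.15, SE, adjusted p = 0.0118), by 1.98-fold (wild type) and 2.30-fold (Ctcfl line). A second probe set annotated to Krt18 gave lower signals, of 7.87, 8.87, 7.57 and 8.55 in the same order of arrays, with nearly the same effect (log2 0.98 ± 0.15, SE, adjusted p = 0.0171 in limma on single probe sets). The same order of arrays was thus read by 2 of 2 Krt18 probe sets.

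Gata3, a zinc finger factor that acts beside Cdx2 in the trophoblast programme, was the only 1 of the 5 transcription factors that passed. Its log2 signals were 7.73 and 9.19 in wild type without and with retinoic acid, and in the Ctcfl line 7.88 and 9.0. Both arrays with retinoic acid were above both without it, with a gap of log2 1.12, and the lines were close in each state. Gata3 rose 2.44-fold in limma, higher in 2 of 2 lines (log2 1.29 ± 0.16, SE, adjusted p = 0.00815). This rests on the probe set that was brighter on average of 2 that name Gata3 alone, and they disagree. The other read 7.82, 7.92, 7.54 and 7.62 in the same order, an effect of log2 0.10 ± 0.15 (SE, adjusted p = 0.731 in limma on single probe sets). With the mean of both probe sets the effect was log2 0.69 (adjusted p = 0.0495 in limma), just inside the threshold. A further probe set, annotated to Gata3 and 2 further genes, stayed between log2 5.16 and 5.75 and was not used. Which transcripts each probe set reads is not given in the sources used here.

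**Figure D1:**
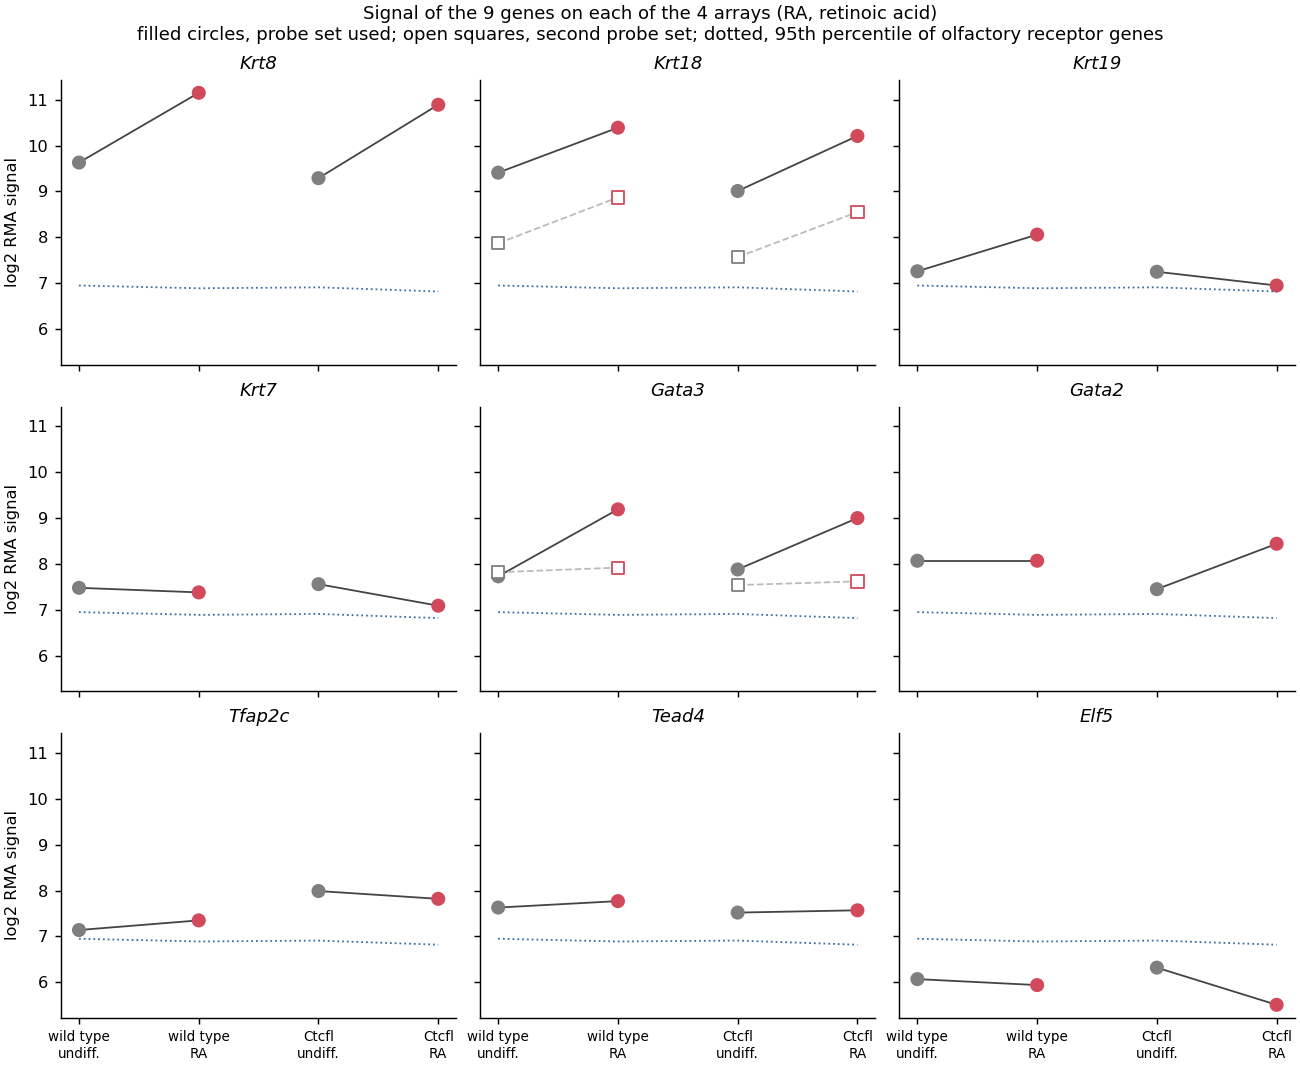
Log2 RMA signal (vertical axis) of each of the 9 genes on the 4 arrays (horizontal axis; grey points undifferentiated, red points retinoic acid, lines joining arrays of the same cell line). Krt8, Krt18 and the brighter Gata3 probe set step up with retinoic acid in both lines, the second Gata3 probe set (open squares) stays between 7.54 and 7.92, and Elf5 lies below the dotted 95th percentile of olfactory receptor genes on all 4 arrays.

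The remaining keratins did not share this pattern. Krt19, a type I keratin that can pair with Krt7 or Krt8, had log2 signals of 7.26 and 8.06 in wild-type cells without and with retinoic acid. In the Ctcfl line they were 7.25 and 6.95. It was thus highest on the wild-type array with retinoic acid and alike on both undifferentiated arrays. Its effect averaged over the lines was log2 0.25 ± 0.26 (SE, adjusted p = 0.597 in limma), made of 0.80 (wild type) and -0.30 (Ctcfl line). Krt7, the second type II chain, had log2 signals of 7.48, 7.38, 7.56 and 7.09 in the same order of arrays, and its effect of log2 -0.28 did not pass (adjusted p = 0.351 in limma). All 4 Krt7 values lay within log2 0.47 of each other.

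Of the other transcription factors, Gata2 differed most between the lines in its response. Its log2 signals were 8.07 and 8.07 in wild-type cells without and with retinoic acid, and 7.45 and 8.44 in the Ctcfl line. The Ctcfl line thus held both the lowest and the highest value, and the response was 1.99-fold in that line against log2 0.01 in wild-type cells. Averaged over the lines the effect was log2 0.50 ± 0.24 (SE, adjusted p = 0.273 in limma). Tfap2c, the AP-2 factor of trophoblast stem cells, had log2 signals of 7.14, 7.35, 7.99 and 7.82 in the same order of arrays. Both Ctcfl-line arrays were above both wild-type arrays, and retinoic acid moved it by log2 0.21 and -0.16 in the 2 lines, an average of 0.02 (adjusted p = 0.947 in limma), whose sign turned to -0.02 with quantile normalization.

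Tead4, the partner of Yap1, was the flattest of the 9 genes, with log2 signals of 7.63, 7.77, 7.52 and 7.57 and a range of 0.25. Elf5, an ETS factor that trophoblast stem cells require, had log2 signals of 6.07, 5.94, 6.32 and 5.51. These signals are near background, so its difference of log2 -0.81 with retinoic acid in the Ctcfl line is not exact. Neither gene passed for retinoic acid (adjusted p = 0.739 for Tead4 and 0.217 for Elf5 in limma).

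Counted together, 3 of the 9 genes rose with retinoic acid in limma, 0 fell and 6 did not pass, where 4.21% of all 18310 genes rose, 2.44% fell and 6.65% did either. The 9 genes were chosen with earlier results of these data known, so setting their counts beside the shares of all genes is no test. At an unadjusted p of 0.05 the counts were 3 and 0, where 12.5% of all genes were higher and 11.0% lower. The median effect of the 9 was log2 0.25, with a range from -0.47 to 1.56, and that of all genes -0.05. In wild-type cells alone, Krt8 and Gata3, 2 of the 9, were at least 2-fold higher with retinoic acid (2.58% of all genes), and 0 were lower by that much (2.62%). In the Ctcfl line alone, 3 genes, Krt8, Krt18 and Gata3, were higher by 2-fold or more (3.21% of all genes) and 0 lower by as much (1.5%). Just short of 2-fold lay Krt18 in wild-type cells (log2 0.99) and Gata2 in the Ctcfl line (log2 0.99). Both retinoic acid arrays were above both undifferentiated arrays in 4 of the 9, the 3 genes that rose and, by log2 0.01, Gata2, where 22.8% of all genes had that order. In bulk RNA, more cells of a type and more RNA per cell cannot be told apart for any of these genes.

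**Figure D2:**
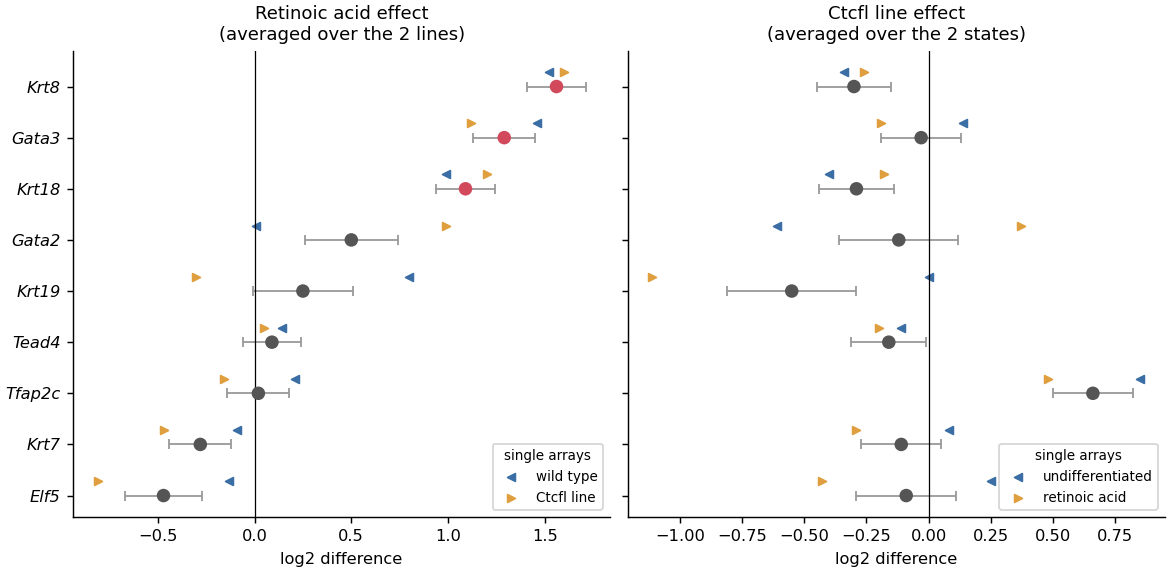
Effects of retinoic acid (left) and of the Ctcfl line (right) on the 9 genes, as log2 differences with SE from limma (points and bars; red passed the test) and the 2 single-array differences behind each (triangles). Krt8, Gata3 and Krt18 stand apart on the left with effects of 1.56, 1.29 and 1.09, and on the right Tfap2c has the highest effect, 0.66, which did not pass.

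Comparing the Ctcfl line with wild type, no gene of the 9 passed. In limma 0 of the 9 rose and 0 fell with the line, where 0.0437% of all genes did either. At an unadjusted p of 0.05, 1 rose and 0 fell, where 9.81% of all genes passed in either direction. That gene was Tfap2c, with a line effect of log2 0.66 ± 0.16 (SE, adjusted p = 0.348 in limma). Its level in the Ctcfl line was 1.80 times that of wild type without retinoic acid and 1.39 times with it. A larger absolute line effect was found in 2.35% of all genes. Krt8 and Krt18 had line effects of log2 -0.30 and -0.29 (adjusted p = 0.573 and 0.592 in limma), with the Ctcfl line the lower in 2 of 2 states. Gata3 had a line effect of log2 -0.03, Tead4 of -0.16, Krt7 of -0.11, Elf5 of -0.09 and Gata2 of -0.12, and none of these passed in limma.

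In single states, 0 of the 9 were at least 2-fold apart between the lines in undifferentiated cells (0.726% of all genes were higher and 1.09% lower). In retinoic acid 1 of the 9, Krt19, was lower in the Ctcfl line by 2.15-fold (0.399% of all genes were lower by 2-fold or more), and 0 were higher by as much (0.830%). Its signal there, log2 6.95, was only just above the 95th percentile of olfactory receptor genes on that array (6.82). The lines were alike for Krt19 when undifferentiated, so its difference of responses is the same 2.15-fold and no second observation. Krt19 was the only 1 of the 9 with a difference of responses that large (0.754% of all genes were at least 2-fold lower and 1.90% higher). A larger absolute difference of responses was found in 1.97% of genes for Krt19 and in 2.88% for Gata2, whose response was 1.98-fold higher in the Ctcfl line. For Krt8, Krt18 and Gata3 the differences of responses were log2 0.07, 0.21 and -0.34, against an SD of 0.321 between probe sets of the same gene. Single arrays give no test of these differences.

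**Figure D3:**
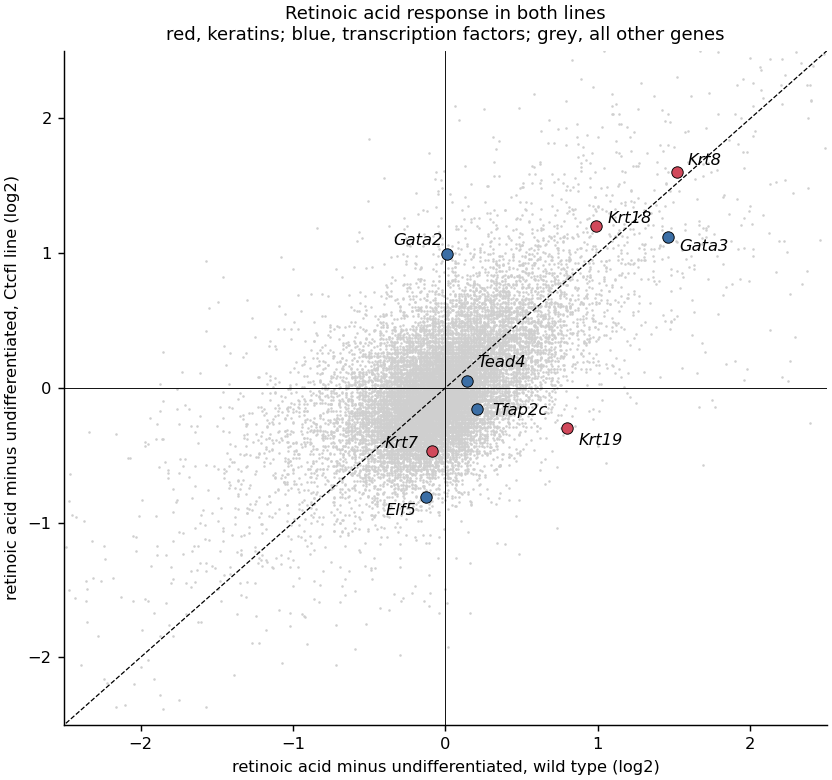
Log2 difference of retinoic acid against undifferentiated in wild-type cells (horizontal axis) and in the Ctcfl line (vertical axis) for the 9 named genes and all others past the signal limit (grey), within 2.5 of 0 on both axes. Krt8, Krt18 and Gata3 lie near the dashed line of equal response, whereas Krt19 (0.80 and -0.30) and Gata2 (0.01 and 0.99) lie away from it.

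Among all keratins on the array, Krt8 and Krt18 were the 2 genes called higher in limma, a count near the share of all genes. This wider list was drawn up after the values were seen. Of 53 keratin genes with a probe set 49 passed the signal limit, and of these limma called 2 higher with retinoic acid and 0 lower, leaving 47 that did not pass. Of all genes 4.21% rose and 2.44% fell. At an unadjusted p of 0.05 the keratin counts were 2 and 5, where 12.5% of all genes were higher and 11.0% lower. The 47 had effects between log2 -0.58 for Krt17, a keratin of skin appendages and basal cells, and 0.36 for Krt15, a keratin of basal epidermis. The median of the 49 was log2 -0.10. The list of stratified epithelium genes, which holds keratins and some other genes, had none that passed with either effect. Of its 11 genes past the limit 0 rose and 0 fell with retinoic acid, against 0 and 2 at an unadjusted p of 0.05. Beyond the keratins, Vim, which encodes the vimentin of mesenchymal cells, had log2 signals of 12.46, 13.01, 12.09 and 12.51 and did not pass (adjusted p = 0.116 in limma), whereas Nes, the nestin gene of neural progenitors, rose 2.38-fold (adjusted p = 0.0154 in limma).

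**Figure D4:**
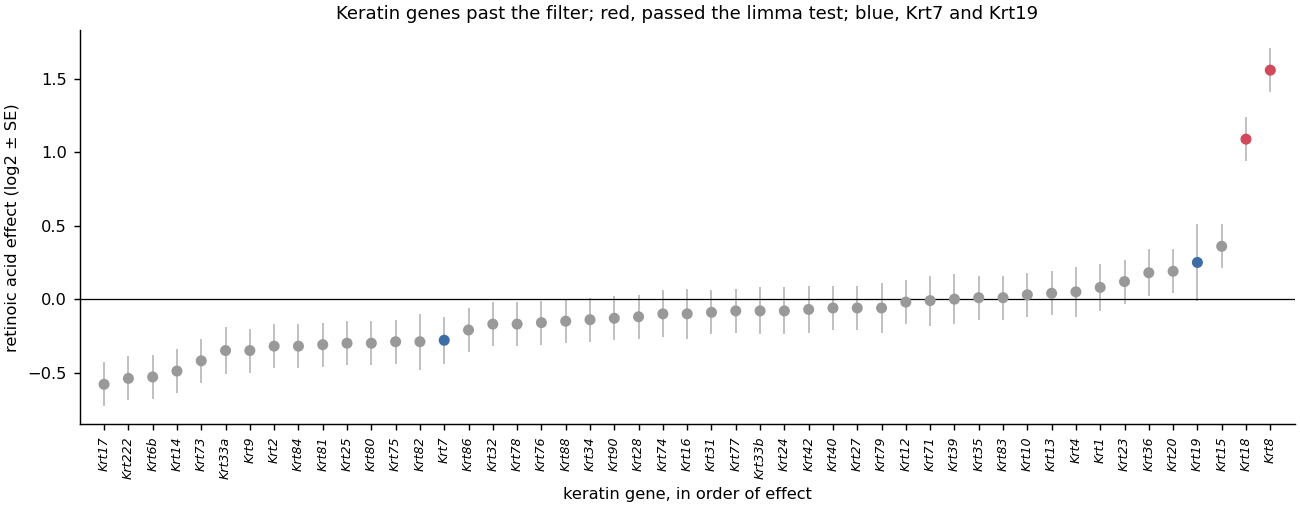
Retinoic acid effect averaged over the lines (vertical axis, log2 with SE from limma) for the 49 keratin genes past the signal limit, in order of effect (horizontal axis). Krt18 at 1.09 and Krt8 at 1.56 (red) stand above the other 47, which end at 0.36, and Krt7 and Krt19 (blue) lie at -0.28 and 0.25.

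Relatives and cofactors of the transcription factors were counted by family, and the shares of all genes given above for limma and for an unadjusted p of 0.05 are the background of these and the next counts. In the GATA list 3 of 6 genes rose and 0 fell in limma, also at an unadjusted p of 0.05. Gata6, a factor of primitive endoderm, rose 8.47-fold (adjusted p = 0.000608 in limma), the GATA cofactor gene Zfpm1 3.08-fold (adjusted p = 0.0045) and Gata5 2.18-fold (adjusted p = 0.0125). Of the other AP-2 genes 0 of 4 passed in limma, and 0 at an unadjusted p of 0.05. Tfap2a, an AP-2 factor of ectoderm and neural crest, had log2 signals of 7.48, 8.16, 7.46 and 6.76, in the same order of arrays as Krt19, with the highest value in retinoic acid-treated wild-type cells and the lowest in the treated Ctcfl line. In the list of Tead4 relatives, coactivators and targets 1 of 16 rose, Vgll4, a cofactor that competes with Yap1 for TEAD factors (1.70-fold, adjusted p = 0.0337 in limma), and 0 fell, against 8 higher and 1 lower at an unadjusted p of 0.05. Of 6 relatives of Elf5 in the ETS family 1 rose and 2 fell, against 2 higher and 2 lower at an unadjusted p of 0.05. Elf4 rose by log2 0.72 (adjusted p = 0.0433 in limma). Etv5 and Etv4, which respond to FGF signals, had effects of log2 -1.42 and -1.24 (adjusted p = 0.00486 and 0.0387).

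Of 15 further regulators of trophoblast stem cells 1 rose, 2 fell and 12 did not pass, with a median of log2 -0.03. In that list 2 were higher and 2 lower at an unadjusted p of 0.05. Eomes, the T-box factor of trophoblast stem cells and primitive streak, fell 2.59-fold (adjusted p = 0.0101 in limma) and the FGF feedback inhibitor Spry4 fell 4.81-fold (adjusted p = 0.00111). The gene that rose was Id2, an inhibitor of basic helix-loop-helix factors, at 1.73-fold (adjusted p = 0.0303 in limma). Cdx2, the homeobox factor of trophectoderm, had log2 signals of 7.09, 7.17, 8.37 and 7.11 and did not pass. Of 20 listed genes of differentiated trophoblast and placenta 15 had a single-symbol probe set and 12 passed the limit. Gcm1, Prl3d1, Prl2c2, Prl3b1 and Rtl1 had no such probe set and could not be tested. Of the 12 genes 0 rose and 1 fell, the basic helix-loop-helix gene Ascl2 (1.82-fold, adjusted p = 0.0224 in limma). At an unadjusted p of 0.05 the counts were 0 and 2. Tpbpa, a defining gene of the spongiotrophoblast, was at log2 5.79, 5.63, 5.23 and 5.22 and below the limit. Id2, Cdx2 and Tpbpa, and in what follows St14, Lama1, Sox17, Afp and Sox2, were named after their values were seen.

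Of 26 genes of simple epithelium junctions and surface 2 rose, 3 fell and 21 did not pass, with a median of log2 -0.18. In that list 2 were higher and 4 lower at an unadjusted p of 0.05. Dsp, the desmoplakin that ties keratin filaments to desmosomes, rose 4.42-fold, from log2 8.25 and 8.43 without retinoic acid to 10.78 and 10.19 with it (wild type first, adjusted p = 0.00385 in limma). The desmosomal cadherin gene Dsc2 rose 2.10-fold (adjusted p = 0.0468). Cdh1, the cadherin of adherens junctions, fell 2.58-fold, the adhesion molecule gene Epcam 2.35-fold and the membrane protease gene St14 2.25-fold (adjusted p = 0.00545, 0.0122 and 0.0131 in limma). Of 13 epithelial transcription and splicing factors 1 rose, Foxa1, a forkhead factor of endoderm (7.92-fold, adjusted p = 0.00199 in limma), and 1 fell, Grhl2, a regulator of junction genes (1.85-fold, adjusted p = 0.0468).

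Markers of other cell types moved on the same arrays as Krt8, Krt18 and Gata3. Of 19 genes of primitive and visceral endoderm 3 rose and 0 fell: Gata6, the growth factor receptor gene Pdgfra (2.19-fold, adjusted p = 0.0245 in limma) and the laminin gene Lama1 (1.74-fold, adjusted p = 0.0454). At an unadjusted p of 0.05 the counts were 6 and 0. The summed linear signal of that list was log2 12.71 and 12.72 on the undifferentiated arrays and 13.31 and 13.15 on those with retinoic acid (wild type first). Gata6 alone made up 63.1% (wild type) and 40.1% (Ctcfl line) of that difference, and the sum of the other 18 genes was log2 12.66 and 12.69 without and 12.92 and 12.96 with retinoic acid. The forkhead gene Foxq1 had log2 signals of 7.05 and 7.94 in wild type without and with retinoic acid, and 6.69 and 9.67 in the Ctcfl line. It just missed the threshold (adjusted p = 0.0526 in limma). Ttr had 7.68, 8.95, 7.45 and 7.73 in the same order of arrays and did not pass (adjusted p = 0.12 in limma). Sox17 and Afp, further markers of primitive and visceral endoderm, lay between log2 6.77 and 7.17 on the 4 arrays. Of 10 neural progenitor genes 4 rose, among them the transcription factor genes Sox1 and Pax6, and 1 fell, the fatty acid binding protein gene Fabp7. At an unadjusted p of 0.05 in limma 6 were higher and 1 lower. Their summed signal was log2 12.89 and 13.03 without and 12.94 and 13.13 with retinoic acid. Sox2, also on the embryonal carcinoma list, is a large part of that sum. It had log2 12.04 and 11.90 without and 11.58 and 11.71 with retinoic acid, so the sum does not describe the other neural genes. Of 9 genes of neural crest and surface ectoderm 1 rose and 1 fell, against 4 higher and 1 lower at an unadjusted p of 0.05. Msx2 rose 3.34-fold (adjusted p = 0.00228 in limma) and Foxd3 fell 2.11-fold (adjusted p = 0.0225). Twist1, a factor of neural crest and mesoderm, had log2 signals of 7.17 and 9.56 in wild type without and with retinoic acid. Its Ctcfl-line values were 7.74 and 7.48, and its averaged effect missed the threshold (adjusted p = 0.289 in limma). The summed signal of that list was log2 10.83 and 10.98 without and 11.53 and 11.22 with retinoic acid. Of 10 blood and endothelial genes 0 passed in limma and 3 did at an unadjusted p of 0.05 (1 higher, 2 lower), with summed signals of log2 10.65 and 10.59 without and 10.80 and 10.45 with retinoic acid. The part of any of these cell types in the changes of Krt8, Krt18 and Gata3 was not tested.

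**Figure D5:**
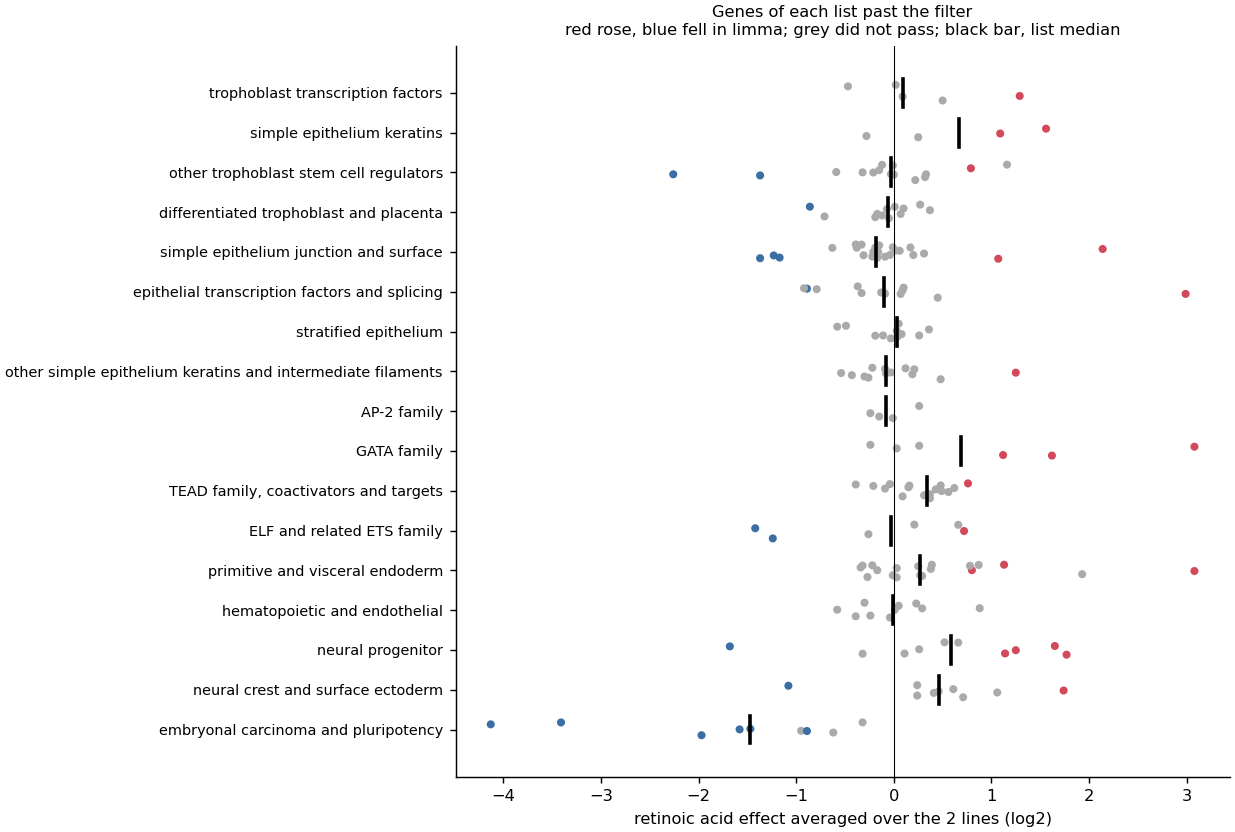
Retinoic acid effect averaged over the lines (horizontal axis, log2) for the genes of each list past the signal limit (rows; red rose and blue fell in limma, grey did not pass, black bars are list medians). The medians are 0.67 for the 4 simple epithelium keratins, which range from -0.28 to 1.56, and 0.09 for the 5 trophoblast factors. Those of other lists include 0.69 for the GATA list, 0.59 for neural progenitor genes, 0.46 for neural crest and surface ectoderm genes and -1.47 for embryonal carcinoma genes.

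Genes with the most similar profiles were sought for the 4 genes whose values spanned at least log2 1, by the Euclidean distance between profiles centred on their mean over the 4 arrays. For Krt8 they were Ulk2, a kinase gene of autophagy, at a distance of log2 0.08, Hipk2, a nuclear kinase gene, and Mllt3, a chromatin reader gene, both at 0.19. For Krt18 they were Sh3pxd2b (0.11), an adaptor gene of podosomes, and the phosphatase gene Dusp8 and the tetraspanin gene Cd151 (both 0.15). For Gata3 they were Igdcc3 (0.10), Fam171a1 (0.11) and the N-cadherin gene Cdh2 (0.14). For Krt19 they were Adgrf5 (0.15), an adhesion receptor gene, Epha3 (0.15), an ephrin receptor gene, and Cdh5 (0.17), the cadherin of endothelium. These are near background, since Adgrf5 was above the 95th percentile of olfactory receptor genes on 0 of 4 arrays and Epha3 and Cdh5 on 1 of 4, so their distances to Krt19 are not a measured likeness. Cdh5 had log2 signals of 6.78 and 7.77 in wild-type cells without and with retinoic acid, and 6.90 and 6.47 in the Ctcfl line. Among the 9 genes themselves, the closest pairs were genes that did not pass, Elf5 and Krt7 (0.25) and Tead4 and Krt7 (0.40). Gata3, by its brighter probe set, lay at 0.43 from Krt18 and 0.44 from Krt8, and Krt8 and Krt18 at 0.47 from each other. These distances rest on 4 arrays and describe profiles only.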

How the data were processed

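The deposited values are log2 signals made by the authors with RMA, per the labels, in Affymetrix Expression Console. Transcriptome Analysis Console is a second tool listed in the submitters' processing notes. RMA corrects background, normalizes between arrays and summarises probe sets. Versions and the genome build are not given in the sources used here. Gene symbols came from the platform annotation: of 41345 probe sets, 23521 had 1 symbol, 1814 several and 16010 were unnamed here. Each gene was represented by the brightest probe set, on average, that names it alone, giving 22180 genes, and genes below log2 6 on every array were left out. Nothing was renormalized.

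The additive fit used limma 3.58.1 in R 4.3.3 (lmFit, eBayes, prior of 5.49 degrees of freedom), two-sided, with Benjamini-Hochberg adjustment over 18310 genes and a threshold of 0.05. Single-array differences were counted at 2-fold. The fit was tested on simulated data of 18310 genes, with 200 changed for each effect and noise drawn from the fit's own prior. Of genes changed 2-fold it called 52.0% for retinoic acid and 49.0% for the line. Of genes changed 4-fold it called 98.0% and 99.0%. False calls were 5.66% and 5.73% of the calls. No simulated response differed between the lines, so these rates hold for that setting and need not carry over to these data. The number of arrays limits the precision. Outside the 9 genes, those named were up to 3 per list with the largest retinoic acid effect and up to 2 with the largest line effect, and the 3 nearest profiles of each gene spanning at least log2 1; exceptions are stated. The 9 genes and the lists were chosen with earlier results of these data known.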

Additional observations from a re-analysis of the deposited data

Results flagged for a closer look

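Some genes moved in opposite directions in the 2 lines or the 2 states, each on single arrays, and none of these differences was tested. The response of Krt19 to retinoic acid was log2 0.80 in wild type and -0.30 in the Ctcfl line, a difference of responses of -1.11. Tfap2a had 0.68 and -0.69, a difference of -1.38, and Tfap2c had 0.21 and -0.16, a difference of -0.38. Between the lines, Gata2 was lower in undifferentiated Ctcfl-line cells (log2 -0.61) and higher in retinoic acid (0.37), a difference of 0.98. The opposite order was seen for Elf5 (0.25 and -0.43, difference -0.68), Gata3 (0.14 and -0.19, difference -0.34), Krt7 (0.08 and -0.29, difference -0.37) and Etv4 (0.93 and -0.12, difference -1.04). Of the other genes named by rule, and Cdx2, those with opposite directions and a difference of at least 2-fold were these. By line, the responses to retinoic acid were 2.39 and -0.26 for Twist1 (difference -2.65), 1.00 and -0.43 for Cdh5 (-1.42), 0.07 and -1.26 for Cdx2 (-1.33), 0.97 and -0.23 for the placental protease gene Pappa2 (-1.19) and 0.83 and -0.21 for Epha3 (-1.04). All 5 were also higher in undifferentiated Ctcfl-line cells and lower in retinoic acid, as were Kdr, a receptor gene of endothelium (0.64 and -0.90, difference -1.54), and Pax6 (0.30 and -0.83, difference -1.13). The reverse order was seen for Foxq1, a forkhead gene (-0.36 and 1.73, difference 2.09), the FGF receptor gene Fgfr2 (-1.74 and 0.09, difference 1.83) and the neural crest gene Sox10 (-0.17 and 1.17, difference 1.34). Probe sets of the same gene varied in this difference with an SD of 0.321, close to the size seen for Gata3, Krt7 and Tfap2c. Pappa2, with log2 signals of 5.33, 6.30, 5.83 and 5.61, lay below the 95th percentile of olfactory receptor genes on every array. Epha3 and Cdh5 were above it on 1 of 4 arrays, so the differences of these 3 genes are near background.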

How the results depend on the processing

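The 3 calls with retinoic acid (Krt8, Krt18 and Gata3) and the 0 calls with the line held under all 5 alternatives that could be tested: no filter, a filter at log2 7 (which removes Elf5), quantile normalization, the mean of probe sets and a prior that follows mean expression. The adjusted p in limma ranged from 0.00144 to 0.00486 for Krt8, from 0.00711 to 0.0158 for Krt18 and from 0.00589 to 0.0495 for Gata3. Fitting each probe set on its own, chosen after seeing the data, left Gata3 with 1 of 2 probe sets past the threshold and Krt18 with 2 of 2. The retinoic acid effect of Tfap2c, 0.02, became -0.02 with quantile normalization. Over all genes, the line calls went from 5 higher and 3 lower to 14 and 9 with quantile normalization and to 9 and 6 with the prior that follows mean expression. Of the 9 genes, those at least 2-fold apart with retinoic acid in wild-type cells numbered 2, and those in the Ctcfl line 3. Averaging the probe sets of a gene made these 1 and 2, since Gata3 then had log2 0.78 and 0.60. At 3-fold in either direction the counts were 0 in wild-type cells (1.85% of all genes), 1 in the Ctcfl line (1.56%), 0 for the line in retinoic acid (0.262%) and 0 for the difference of responses (0.524%). At 1.5-fold they were 4 in wild-type cells (14.4%), 5 in the Ctcfl line (15.1%), 2 for the line in undifferentiated cells (8.89%) and 3 for the difference of responses (12.4%). Leaving out an array leaves no residual degree of freedom and returns the single-line differences already given: 1.52 to 1.60 for Krt8, 0.99 to 1.20 for Krt18 and 1.12 to 1.46 for Gata3. Of all effects so obtained, 32 moved by more than the SD between probe sets and 40 did not. These counts hold repeated values and are not separate checks. Leaving out either array of a line gives the same retinoic acid effect, and either array of a state the same line effect. With retinoic acid the genes that moved were Krt19 (-0.30 to 0.80), Gata2 (0.01 to 0.99) and Elf5 (-0.81 to -0.13). For the line they were Krt19 (-1.11 to 0.00), Gata2 (-0.61 to 0.37), Elf5 (-0.43 to 0.25), Krt7 (-0.29 to 0.08) and Tfap2c (0.48 to 0.85). The additive fit already compares the states within each line, and no further pairing by replicate number exists with 1 array a group. Signals near log2 6, as for Elf5, limit what can be read from its differences.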
